A study of Mus musculus with 6 samples.

Results

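Interferon regulatory factors (IRFs) are DNA-binding proteins that switch on interferons and the genes that interferons induce, and the H3K27ac peaks at 8 of their genes in B16 mouse melanoma cells are described here. The genes are Irf1, Irf2, Irf3, Irf4, Irf5, Irf7, Irf8 and Irf9, chosen by name and not by their signal, though earlier results of these data were known. Overlapping peaks from the peak lists of 4 libraries were merged into regions. Every region that overlapped the body of 1 of these genes or the 10 kb on either side was taken. This gave 39 of the 182956 regions of the whole data set. Acetylation of lysine 27 of histone H3 (H3K27ac) marks the promoters and enhancers of active genes, and it was measured by chromatin immunoprecipitation and sequencing (ChIP-seq).

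The study asked how chromatin differs between cells of low pigment (LP) and high pigment (HP) that arise together. B16 F10 cells, an established melanoma line of C57BL/6 mice, were seeded at 100 cells per cm2 in medium with serum and collected on day 5, when single founder cells have grown into cultures of mixed pigmentation. LP and HP cells of the same culture were separated by the intensity of side scatter, and the labels name no drug or genetic change in either. Each population had 2 replicates, and IgG libraries of unsorted cells, 1 for each replicate number, served only as controls for peak calling. The populations were defined by light scatter within 1 tumour line, so they are neither pure pigment states nor normal melanocytes. The labels give replicate sets but not whether these were separate cultures, and p-values measure the spread between these libraries, which may be technical.

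IRF1, IRF2, IRF3 and IRF9 are made in most cell types. IRF3 and IRF7 are activated by kinases downstream of viral nucleic acid sensors and turn on type I interferon, IRF9 is the DNA-binding part of the complex that carries the interferon signal to target genes, and IRF1 and IRF2 act on shared sites as activator and, mostly, repressor. IRF4 and IRF8 are best known from lymphoid and myeloid cells, and IRF4 is also made in melanocytes, where it works together with MITF at the tyrosinase gene. IRF5 drives inflammatory cytokines, chiefly in myeloid cells.

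The libraries held between 11467942 and 15353176 fragments in LP and between 11483830 and 14254904 in HP, and 57942 to 71529 peaks. The level of a region in a library was the pileup, the number of fragments over the highest summit, divided by the fragments of the library and multiplied by 1e+06, and it is called scaled pileup below. A region without a peak in a library had not passed the peak caller's threshold there, which does not mean that it had no acetylation. Of 11 melanocyte marker genes, 8 had a promoter region called in all 4 libraries, among them Mitf, Tyr, Dct and Sox10, beside 46% of all protein-coding genes. Slc45a2 had one in 3 libraries, and Kit and Ednrb had one in 1 library each. Of 12 immune marker genes 8 had no promoter region in any library, and Ptprc and Cd3e were among these, beside 27.7% of all protein-coding genes with none. The remaining 4 immune genes had regions in 1 or 2 libraries. The scaled pileup of HP exceeded that of LP almost everywhere, with a median log2 ratio of 0.92 over the 12084 regions called in all 4 libraries, 0.57 in replicate 1 and 1.30 in replicate 2, and every ratio below has to be read against this shift.

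The reference sequence was searched for the letters that IRF proteins recognise, and a match describes the sequence without showing that a factor binds there. The stretches upstream of the first transcription start site (TSS) of Irf1, Irf2, Irf4 and Irf8 are shown because these genes span the range from the highest to the lowest promoter level. Capitals mark the IRF motif (GAAA, any 2 bases, GAAA), which IRF proteins bind, on either strand. The sequences are from RefSeq for GRCm38.p6 (mm10), on the plus strand, at chr11:53769764-53770013 for Irf1, chr8:46739495-46739731 for Irf2, chr13:30748983-30749225 for Irf4 and chr8:120736108-120736357 for Irf8.
Irf1 upstream of the TSS: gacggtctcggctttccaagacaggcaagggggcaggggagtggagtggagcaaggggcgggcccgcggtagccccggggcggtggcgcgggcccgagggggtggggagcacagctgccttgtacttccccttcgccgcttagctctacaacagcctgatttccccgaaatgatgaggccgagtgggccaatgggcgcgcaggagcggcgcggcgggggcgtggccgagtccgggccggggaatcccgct
Irf2 upstream of the TSS: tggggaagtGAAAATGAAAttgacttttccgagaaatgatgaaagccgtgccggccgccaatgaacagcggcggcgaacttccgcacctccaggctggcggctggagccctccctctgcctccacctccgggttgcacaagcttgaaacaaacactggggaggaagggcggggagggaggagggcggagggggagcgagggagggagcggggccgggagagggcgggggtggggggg
Irf4 upstream of the TSS: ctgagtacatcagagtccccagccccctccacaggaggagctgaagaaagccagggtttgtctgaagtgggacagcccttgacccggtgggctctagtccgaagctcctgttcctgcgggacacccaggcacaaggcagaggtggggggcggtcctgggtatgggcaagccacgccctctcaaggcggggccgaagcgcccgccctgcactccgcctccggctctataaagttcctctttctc
Irf8 upstream of the TSS: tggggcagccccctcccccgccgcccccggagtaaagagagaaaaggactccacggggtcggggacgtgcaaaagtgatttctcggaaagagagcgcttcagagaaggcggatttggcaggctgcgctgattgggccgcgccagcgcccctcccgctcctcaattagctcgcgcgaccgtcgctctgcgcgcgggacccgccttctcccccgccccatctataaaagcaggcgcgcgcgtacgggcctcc
The Irf2 stretch, which overlaps an exon of the lncRNA gene Gm16675, held an IRF match that starts at position -228 from the TSS. The Irf1, Irf4 and Irf8 stretches held no match to the IRF motif. Over 32851 RefSeq promoters of 300 bases, 3.44% held the IRF motif.

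At Irf7 the IRF motif lay under the peak itself. On the plus strand the site starts 7 bases before the summit of the promoter region. This summit lay 374 bp past the first TSS of Irf7 but 63 bp upstream of the nearest annotated TSS of the gene. The 30 bases at chr7:141266090-141266119 (mm10, plus strand) are shown with the motif in capitals.
Irf7 site: tgcatctcagGAAAATGAAAcctaaacagt
Its 10 motif letters were identical to those upstream of Irf2. Within 100 bp of the summit, 3 of the 39 regions held the IRF motif (7.69%), against 2.50% of all regions. The other 2 IRF matches lay in regions of 1 library each, in the windows of Irf2 and Irf3. The M-box motifs TCACGTG and TCATGTG, to which MITF binds, were in none of the 39 and in 4.57% of all regions.

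Promoter acetylation of the 8 genes ran from one of the stronger signals in the genome, at Irf2, to a peak in 1 library alone at Irf4 and at Irf8. A promoter region was one that overlapped 3 kb on either side of a TSS of the gene, and where there were several the one with the highest mean level is given. Irf2, Irf1 and Irf3 had a promoter region in all 4 libraries, Irf5, Irf9 and Irf7 in 3, and Irf4 and Irf8 in 1. So 3 of 8 genes were called in all 4 libraries, where 46% of all protein-coding genes were, and 2 of 8 in a single library or none, where 44.5% of all protein-coding genes were. Since a pileup is a height at 1 position, it does not grow with gene length. The region was picked over all annotated starts, and annotated transcripts ranged from 3 at Irf4 to 13 at Irf3 and Irf7. Levels can be set side by side between genes only with this limit.

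**Figure D1:**
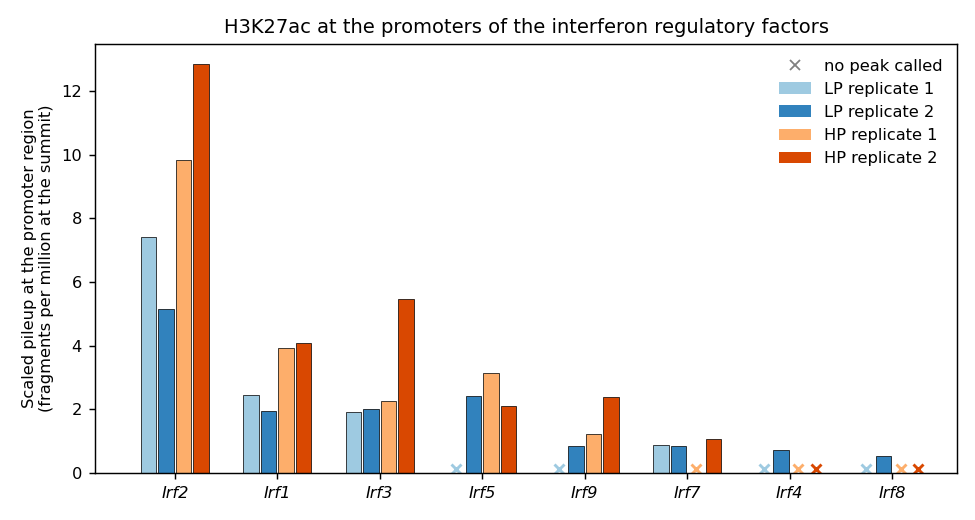
Scaled pileup (fragments over the summit, scaled to 1e+06 fragments, linear axis) of the promoter region of each IRF gene in LP replicates 1 and 2 (blue) and HP replicates 1 and 2 (orange), with a cross where no peak was called. Irf2 stood highest, between 5.15 and 12.8, and Irf4 and Irf8 had a bar in LP replicate 2 alone.

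Irf2 (ENSMUSG00000031627.9, chr8:46739732-46847458) carried the highest promoter level of the family. Its region, chr8:46739138-46742253, runs from upstream of the TSS into the first intron and had scaled pileups of 7.41 and 5.15 in LP and 9.84 and 12.8 in HP. Both HP libraries lay above both LP libraries, as in 74.8% of all regions called in all 4 libraries. The log2 ratio was 0.86 with a standard error of 0.54, which did not pass the threshold (limma, Benjamini-Hochberg adjusted p = 0.1996), and after each library was centred on its median it was -0.15. In mean level it exceeded 92.0% of protein-coding genes. The lowest Irf2 value was above the highest Irf1 value, so the promoters of these paired regulators did not overlap in level.

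Irf1 (ENSMUSG00000018899.16, chr11:53770014-53778374) is the classical gene induced by interferon gamma. Its promoter region, chr11:53769455-53770898, had scaled pileups of 2.44 and 1.95 in LP and 3.92 and 4.07 in HP, again without overlap between the populations. The log2 ratio was 0.87 (SE 0.54; limma, Benjamini-Hochberg adjusted p = 0.198), or 0.68 in replicate 1 and 1.06 in replicate 2, and it was -0.14 after centring. Irf3 (ENSMUSG00000003184.15, chr7:44997648-45002848), the factor that starts the interferon response to viral nucleic acid, had 1.92 and 2.02 in LP and 2.26 and 5.47 in HP at chr7:44997241-44999020. The populations did not overlap, but nearly all of the difference came from HP replicate 2, with a log2 ratio of 0.24 in replicate 1 and 1.44 in replicate 2. The ratio over all 4 libraries was 0.84 (SE 0.54; limma, Benjamini-Hochberg adjusted p = 0.209), and -0.17 after centring. Bcl2l12, a gene transcribed away from Irf3, shares this region, and a peak cannot be divided between the genes. The order of Irf1 and Irf3 is not resolved, since their values over the libraries overlapped.

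Of the 3 promoter regions that could be tested, 0 passed the adjusted threshold of limma in either direction and 0 had an unadjusted p under 0.05, although both HP values exceeded both LP values in each. Over all regions called in the 4 libraries 4.01% were called higher in HP and 0% lower (limma, Benjamini-Hochberg adjusted p at most 0.05). The median log2 ratio of the 3 was 0.86, beside 0.90 over the protein-coding promoters called in all 4 libraries.

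The other 5 promoters lacked a peak in at least 1 library and did not enter this fit. A second fit, over the regions called in at least 3 libraries with missing values left out, was chosen after the values were seen and took in those of Irf5, Irf9 and Irf7. Irf5 (ENSMUSG00000029771.12, chr6:29526625-29541871) had 2.41 in LP replicate 2 and 3.13 and 2.10 in HP at chr6:29526409-29527272, and no peak in LP replicate 1. The LP replicate that was called lay between the HP replicates, and in the second fit the log2 ratio of Irf5 was 0.09 (limma, Benjamini-Hochberg adjusted p = 0.915). Irf9 (ENSMUSG00000002325.15, chr14:55603571-55610030) showed 0.847 in LP replicate 2 and 1.22 and 2.39 in HP at chr14:55603984-55604556, a region that also lies at a promoter of Rnf31, with a log2 ratio of 1.01 in the second fit (limma, Benjamini-Hochberg adjusted p = 0.258). Irf7 (ENSMUSG00000025498.15, chr7:141262706-141266481, minus strand), which amplifies the interferon response once it has begun, had 0.872 and 0.847 in LP and 1.05 in HP replicate 2, with no peak in HP replicate 1 and a log2 ratio of 0.29 in the second fit (limma, Benjamini-Hochberg adjusted p = 0.725). Its pileups were 10 to 15 fragments, near the median peak of the lists at 7 to 12 and above the lowest at 5 or 6. The peak missing in HP replicate 1 was not tested as a difference.

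Irf4 (ENSMUSG00000021356.10, chr13:30749226-30766976) had no acetylated region that recurred between libraries, in either population. Within 10 kb there were 5 regions, and each was called in 1 library. The promoter region, chr13:30748402-30748656, was called in LP replicate 2 at 0.716, from 11 fragments. A region in an intron, chr13:30760645-30760913, was called in HP replicate 1 at 0.784, and another in an exon, chr13:30764613-30764813, in the same library at 0.610. LP replicate 1 had its 1 peak at the 3′ end of the gene at 0.523, and HP replicate 2 had its 1 peak downstream at 0.702, on a GA repeat. In all, peaks covered 188 and 255 bp in the LP libraries, against 470 and 318 bp in the HP libraries. The nearest region called in more than 1 library, chr13:30781887-30782496, lay 32.7 kb from the TSS, outside the window, and had peaks in HP alone at 0.784 and 0.912. Irf8 (ENSMUSG00000041515.10, chr8:120736358-120756694) had a single region, at its TSS, called in LP replicate 2 at 0.521, from 8 fragments. The lowest peak of that library had 6 fragments, so the order of Irf4 and Irf8 is not resolved. The nearest region to the Irf8 TSS with peaks in more than 1 library was 67.2 kb away, at the shared promoter of Cox4i1 and Emc8.

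**Figure D2:**
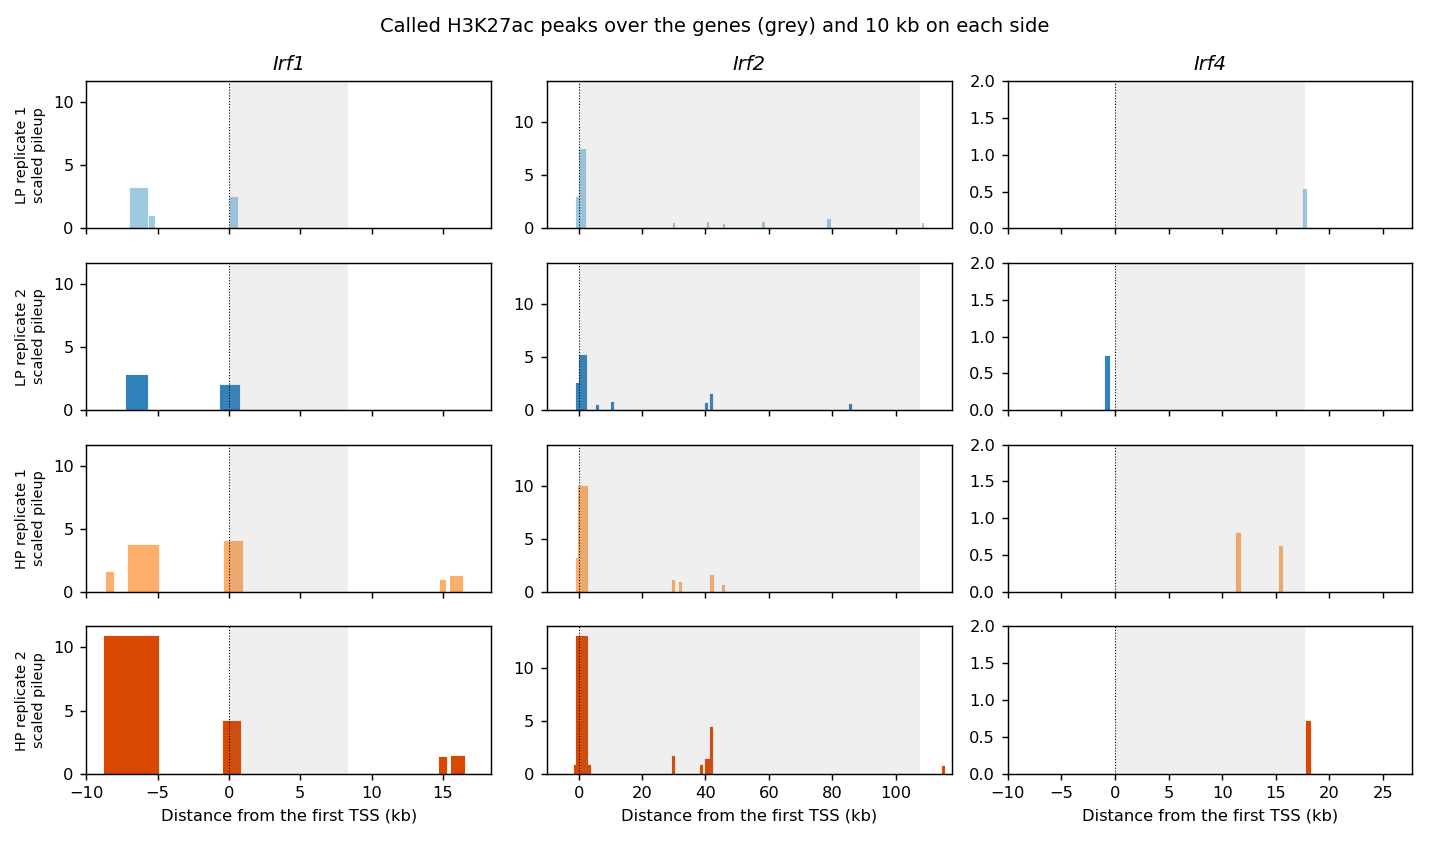
Called H3K27ac peaks over Irf1, Irf2 and Irf4 (grey) with 10 kb on each side, 1 row per library, where the x axis is the distance from the first TSS in kb, each bar spans a peak and its height is the scaled pileup at the summit (the Irf4 axis ends at 2). The upstream region of Irf1 was covered over 1421 and 1436 bp in LP, against 2484 and 3725 bp in HP, and no peak of Irf4 recurred between libraries.

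Outside the genes' own promoters the strongest signal stood upstream of Irf1. The region chr11:53761326-53765050, with its summit at -6092 bp from the TSS of Irf1, also lies within 3 kb of the start of the microRNA gene Mir7671 and was counted as a promoter of that neighbour. The 201 bases around its summit, chr11:53763822-53764022 (mm10, plus strand), are shown because this site had the largest ratio of all IRF regions called in the 4 libraries. They hold neither the IRF motif nor the M-box motifs, so there are no capitals.
Irf1 upstream summit: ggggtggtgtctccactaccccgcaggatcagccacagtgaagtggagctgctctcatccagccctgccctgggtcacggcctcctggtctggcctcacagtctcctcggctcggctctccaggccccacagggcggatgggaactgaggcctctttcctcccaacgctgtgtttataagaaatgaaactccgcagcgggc
Scaled pileups there were 3.14 and 2.74 in LP and 3.66 and 10.8 in HP. Both HP libraries were above both LP libraries, but HP replicate 1 by little. Replicate 1 gave a log2 ratio of 0.22, against 1.98 for replicate 2. Over all 4 libraries the ratio was 1.10 (SE 0.54; limma, Benjamini-Hochberg adjusted p = 0.129), which did not pass the threshold, although its p before adjustment was under 0.05. An unadjusted p under 0.05 with HP higher was reached by 36.2% of all tested regions. Without HP replicate 1 the ratio was 1.88, and without HP replicate 2 it was 0.32. In these fits the spread came from the LP libraries alone, and the lone HP library was assumed to vary like them. Only their ratios are therefore given. Peaks also covered more of this region in HP, with 2484 and 3725 bp in all against 1421 and 1436 bp in LP. Covered length was larger in HP over the whole peak lists too, as given below.

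Downstream of Irf1 lay the only IRF regions that were called in both HP libraries and in neither LP library. They were chr11:53784833-53785196, at 0.871 and 1.26, and chr11:53785568-53786478, at 1.22 and 1.33, both inside the gene Gm12216 with summits 15058 and 15864 bp past the Irf1 TSS. These are low peaks, of 10 to 19 fragments, and the first lies on repeat-masked sequence. Such regions made up 2 of the 39, where they made up 3.94% of all regions, and 2 of the 20 distal ones, where they made up 3.58% of all distal regions. No IRF region was called in both LP libraries alone, a class of 0.249% of all regions and 0.272% of all distal regions. Peaks around Irf1 covered 1900 and 2735 bp in the LP libraries, against 4763 and 6080 bp in the HP libraries, without overlap. Both HP libraries covered more than both LP libraries at 5 of the 8 genes, beside 39.3% of the 19689 protein-coding genes with a peak in such a window. Over the 8 genes the covered length was 7602 and 10791 bp for LP against 12450 and 17856 bp for HP, and over the whole peak lists it was 18.9 and 30.3 Mb for LP against 31.9 and 43.9 Mb for HP.

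Within Irf2 the long introns held most of the distal regions, and these were weak. Of its 16 regions 11 were called in 1 library. The highest intronic one, chr8:46781356-46781972, lay 41869 bp past the TSS and had 1.43 in LP replicate 2, 1.48 in HP replicate 1 and 4.28 in HP replicate 2, with no peak in LP replicate 1. Its summit sits on a tandem repeat, which is why the sequence is shown, at chr8:46781501-46781701 (mm10, plus strand), and reads from such repeats are hard to place. It holds neither the IRF motif nor the M-box motifs.
Irf2 intron summit: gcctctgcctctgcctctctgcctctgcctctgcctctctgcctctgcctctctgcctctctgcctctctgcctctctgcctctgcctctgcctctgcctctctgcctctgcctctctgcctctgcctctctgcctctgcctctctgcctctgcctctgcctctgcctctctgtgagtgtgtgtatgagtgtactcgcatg
The neighbouring region chr8:46779903-46780972 had 0.610 and 0.586 in LP and 1.33 in HP replicate 2, and chr8:46769349-46769908, within 3 kb of the start of Gm31172, had 0.523 in LP replicate 1 and 1.04 and 1.61 in HP. Another region, chr8:46785200-46785719, was called in replicate 1 of both populations at 0.436 and 0.610. In each of these the HP values exceeded the LP values where both were called, in the direction of the shift over all regions. In the fit over regions called in at least 3 libraries, the log2 ratios of the first 3 of these Irf2 regions ranged from 0.81 to 1.31 and 0 passed (limma, lowest Benjamini-Hochberg adjusted p = 0.167). The region called in 2 libraries was not in that fit.

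**Figure D3:**
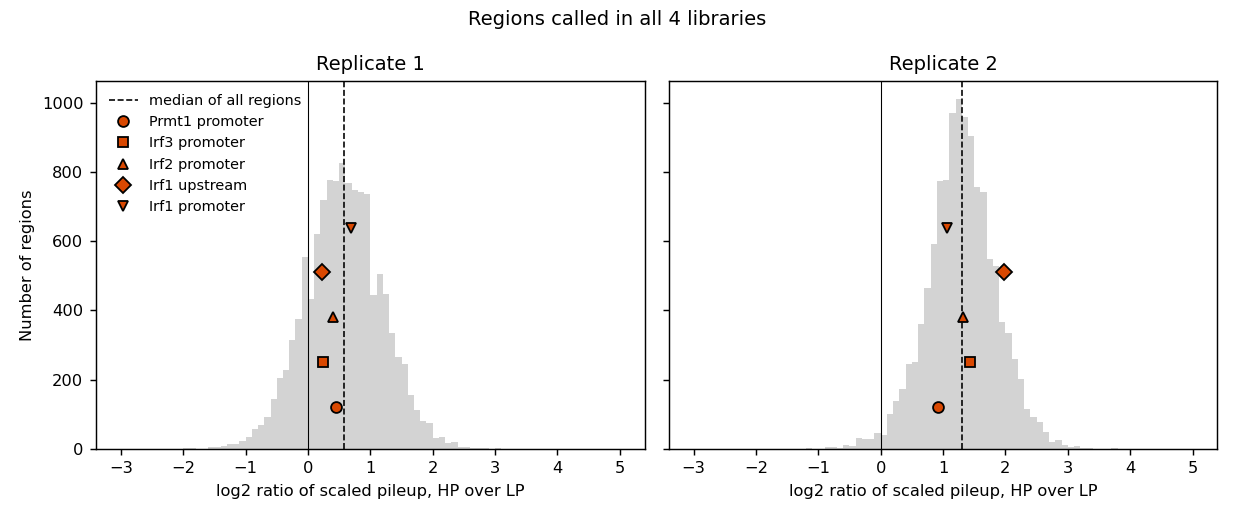
Number of regions (grey) by the log2 ratio of scaled pileup, HP over LP, in replicates 1 and 2, for the 12084 regions called in all 4 libraries, with the 5 IRF regions as symbols placed at arbitrary heights and the median as a dashed line (0.57 and 1.30). The upstream region of Irf1 lay below the median in replicate 1, at 0.22, and above it in replicate 2, at 1.98.

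All 5 IRF regions called in the 4 libraries had both HP values above both LP values, beside 74.8% of all such regions, and a ratio above 0, beside 99% of all such regions. The fifth is the promoter of Prmt1, an arginine methyltransferase gene upstream of Irf3. This region overlaps the edge of the Irf3 window, and its summit lay outside, at -10560 bp from the Irf3 TSS. It had LP values of 1.40 and 1.37, HP values of 1.92 and 2.60 and a log2 ratio of 0.69 (SE 0.54; limma, Benjamini-Hochberg adjusted p = 0.278). After centring, 4 of the 5 ratios were below 0 and that of the upstream Irf1 region was 0.09. In the centred fit each of the 5 had an adjusted p of 0.9997 (limma, Benjamini-Hochberg).

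Most IRF regions were seen once. Of the 39, 25 were called in 1 library (64.1%), against 81.7% of all regions, and 5 in all 4 libraries, against 6.6%. Distal regions were the least repeated, with 15 of 20 in 1 library (75%, against 88.4% of all distal regions) and 0 in all 4, against 1.53%. The single-library regions had 6 to 16 fragments at the summit, and the 14 others reached 7 to 183. Single-library regions fell in LP replicates 1 and 2 6 times each, in HP replicate 1 4 times and in HP replicate 2 9 times, so they did not favour a population in both replicates.

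The genes whose promoters had levels most like those of Irf2 across the 4 libraries, by the root mean square difference of log2 scaled pileup over 10027 genes, were Arid1a (0.0196), Dynll2 (0.0470) and Adam10 (0.0528). Irf2 was used because it had the highest level, since Irf4 had no promoter level in all 4 libraries. The likeness rests on 4 libraries, and many genes of similar height share the pattern of the libraries.

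Among the listed genes for interferons, receptors, sensors, kinases and JAK-STAT signalling, those with a promoter region in all 4 libraries gave no call between the populations. The others ranged from no region at all to regions in up to 3 libraries. Of 12 genes for interferons and their receptors, 5 had a promoter region in all 4 libraries and 5, all of them interferon genes, had none. The log2 ratios of the 5 ran from 0.29 at Ifnar1 to 1.42 at Ifnar2, the genes for the chains of the type I interferon receptor (limma, Benjamini-Hochberg adjusted p = 0.618 and 0.0781). Of 16 genes for nucleic acid sensors and their kinases 8 were tested, from 0.54 at Traf6 to 1.33 at Mavs, and of 14 for JAK-STAT signalling and its inhibitors 12, from 0.37 at Irf2bp1 to 1.24 at Irf2bp2. The last 2 encode corepressors that bind IRF2. With the 40 interferon-stimulated genes below, 34 promoter regions were tested, 0 were called in either direction (limma) and 10 had an unadjusted p under 0.05, where 4.01% and 36.2% of all tested regions were called higher by these rules, with a median log2 ratio of 0.80.

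More promoters of the pathway's target genes had a peak in HP than in LP. Of 40 interferon-stimulated genes, 11 and 15 had a promoter peak in the LP libraries and 25 and 32 in the HP libraries, or 27.5% and 37.5% against 62.5% and 80%. Among all protein-coding genes the LP libraries had 51.0% and 59.5% and the HP libraries 56.4% and 58.6%. Among the 8 IRF genes these shares were 50% and 100% for LP against 62.5% and 75% for HP, and the populations overlapped. Called in both HP libraries and neither LP library were 9 of 40 (22.5%), beside 1.68% of all protein-coding genes, and called in both LP libraries alone were 0, beside 0.073%. The 9 were Ifit2, Isg20, Rsad2, Ifi27, Ifitm3, Gbp7, Cxcl10, Trim21 and Ube2l6. Ifit2, which binds viral RNA, had 1.57 and 2.31, and Rsad2, the antiviral enzyme viperin, had 1.22 and 1.82. The sensor gene Tlr3 was called in HP alone as well, at 1.31 and 2.03. These are low peaks, and the part that the general shift of scaled pileup had in this count was not tested. Counts are by gene, so Parp9 and Dtx3l, which had equal values in every library, count separately. Among the 2094 protein-coding genes with a promoter region called in 2 or 3 libraries, 17.6% were called in HP alone, beside 9 of 17 interferon-stimulated ones. There were again 9 at a q-value of at most 0.01 and with a promoter window of 1 kb, and 17 and 14 were called in HP and not in LP within replicate 2 and replicate 1, beside 6.14% and 9.54% of all protein-coding genes. In the other direction there were 0 in both, beside 6.98% and 4.13%. These counts were made after the values were seen. The 9 interferon-stimulated promoters called in all 4 libraries had a median log2 ratio of 0.91, from 0.25 at Ifi35 to 1.54 at Pml, and 0 passed the adjusted threshold (limma), with 3 at an unadjusted p under 0.05.

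**Figure D4:**
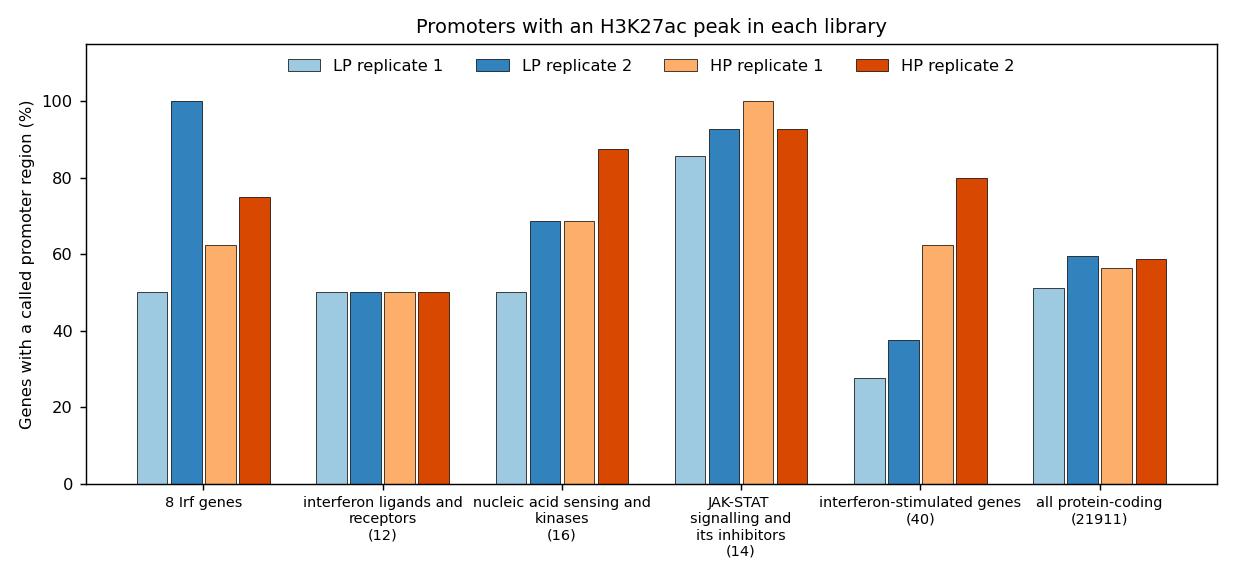
Percent of genes with a called promoter region in each library (y axis, from 0) for the 8 IRF genes, the lists of pathway genes and all protein-coding genes, with the number of genes in brackets. The interferon-stimulated genes went from 27.5% and 37.5% in LP to 62.5% and 80% in HP, whereas all protein-coding genes stayed between 51.0% and 59.5%.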

How the data were processed

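Paired-end reads had been trimmed, aligned to mm10 with Bowtie2 2.5.1 and used to call narrow peaks in each library with MACS 3.0.0b1 at a q-value of 0.05, with the IgG library that shares its replicate number as control, all by the authors. The pileup is a deposited signal, the whole number of fragments that cover a summit, without scaling. The fold enrichment and the −log10 p-values and q-values were computed by the authors and served only to describe or filter peaks. Depth and fragment length (167 to 217 bp) are from the deposited peak tables. A median peak had 7 to 12 fragments, so low peaks pass or miss the threshold on few fragments.

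Peaks of the 4 lists were merged on an overlap of 1 bp, and the highest pileup was divided by the total fragments and multiplied by 1e+06. The log2 values, with no pseudocount, were compared with limma 3.58.1 in R 4.3.3 for the 12084 regions with a peak in every library, adjusted over all of these by Benjamini-Hochberg and called at 0.05. The prior degrees of freedom were infinite, so all regions share 1 SE. The study's own comparison of alignments was not repeated, since alignments were not used here. An exact permutation test of 2 against 2 libraries cannot give a two-sided p below 0.333. Replicate numbers pair the libraries, since each replicate set had equal DNA and its own IgG. The difference between replicates in LP had a correlation of 0.0153 with that in HP. The main fit had no replicate block.

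Genes and transcripts were from GENCODE for GRCm38, and sequences and motifs were read from GRCm38.p6 and RefSeq. All 8 genes, every distal region called in 2 or more libraries, and in each list of pathway genes those with the highest and lowest ratio are named. Marker genes are given by counts. The genes and lists were chosen with earlier results of these data known. Scripts in Python 3.11.15 (pandas 2.3.3, numpy 2.4.6, matplotlib 3.10.9) were tested on simulated data. A further motif that was searched is not reported here. Alternatives covered scaling, summit value, block, left-out libraries, q-value, windows and transcripts. The labels give 1% formaldehyde for 10 minutes of fixation.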

Additional observations from a re-analysis of the deposited data

How the results depend on the processing

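No IRF region was called higher or lower in HP under any scaling, with the mean summit, with the replicate block, at a q-value of at most 0.01 or with other windows. The exception was the fit without HP replicate 1, whose spread came from the LP libraries alone on the assumption that the lone HP library varied like them, and which called 2 of 5 IRF regions (the Irf3 promoter at 1.48, limma, Benjamini-Hochberg adjusted p = 0.0157, and the upstream Irf1 region) and 18 of 34 pathway promoters, so these counts ran from 0 to 2 and from 0 to 18 when single libraries were left out. Over all regions the count higher in HP ran from 0 to 6930 of 12084 on leaving out a library. The 6930 came from the same fit without HP replicate 1. The 2 of 5 and the 18 of 34 were therefore not larger shares than that of all regions. The count over all regions was 88 with the replicate block, 0 after centring (177 at an unadjusted p under 0.05, limma) and 0 after quantile normalization (227 unadjusted). It was 9 with fragments times fragment length, 0 with the mean summit (3253 unadjusted, limma) and 186 for regions called in at least 3 libraries. The replicate block changed no call at the IRF genes. The median log2 ratio turned negative after centring and quantile normalization, to -0.15 and -0.15 for the IRF regions and -0.21 and -0.10 for the pathway. So did single ratios, to -0.14 and -0.15 for Irf1, -0.17 and -0.22 for Irf3 and -0.32 and -0.34 for the Prmt1 promoter, and for Irf2 to -0.15 after centring alone. These scalings remove by construction the shift shared by all regions.

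The 2 IRF regions called in HP alone became 0 with the gene body or 3 kb windows and 6 with 20 kb, where 1 was called in LP alone. Within single replicate numbers, 9 to 12 of the 39 were called in HP and not LP, and 6 to 8 in LP and not HP. As a replicate block these counts averaged 10.5 and 7. The shares of all regions for these windows and single replicate numbers are not given, so these counts cannot be set against the general shift. With 2 libraries per population and few fragments per peak, differences below the shift and the SE were not detectable.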
